A study of Rattus norvegicus with 65 samples.

Results

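The early response of heart muscle cells to doxorubicin (Dox) was read from 14 of the 65 libraries of the series, the 7 labelled Dox at 6 h and the 7 labelled DMSO2 at 6 h, over all 14554 genes of the deposited table. The libraries were chosen by their labels alone. The cells were primary cardiomyocytes of newborn rats that were starved of serum overnight before treatment. The Dox wells held 1.25 µM Dox in 0.25% DMSO for 6 h, and the DMSO2 wells held 0.25% DMSO alone. The same DMSO2 libraries are also the controls of 6 acetaminophen (Ace, 2.5 mM) libraries. The other 6 h groups used below are 5-fluorouracil (5FU, 10 mM) and its own control DMSO1 (1% DMSO), with 6 libraries each, and Dox and DMSO2 were also sampled at 24 h, with 7 libraries each. The strain, sex and age of the pups are not given in the labels. Per the study's methods, pups of several litters were harvested on a single day and their cells pooled, then split into wells. Each library is thus a well of that pool, and the p-values below measure the spread between wells and not between animals. Cells of other types remain in such cultures, and in bulk RNA fewer cells of a type and less RNA per cell cannot be told apart.

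Dox is an anthracycline, a cancer drug whose use is limited by damage to the heart. It inserts between DNA bases, evicts histones from chromatin and holds topoisomerase II on cut DNA, so that breaks through both strands remain. Breaks activate the kinase ATM, which stabilises the transcription factor p53, and p53 then raises genes that stop the cell cycle or start cell death. Dox also cycles between its quinone and semiquinone forms and can produce reactive oxygen in mitochondria.

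Total counts were 17224055 to 20365077 in the Dox libraries and 18436756 to 21848389 in DMSO2, and 12496 genes had at least 10 counts in all 14 libraries. The first principal component of log2 CPM (counts scaled to library size) held 67.2% of the variance and separated the groups without overlap. Expression of cardiomyocyte genes was high throughout: troponin T (Tnnt2) was 8091 to 9394 CPM (median 8415) in the Dox libraries and 6156 to 7499 CPM (median 6524) in DMSO2, and none of the 11 cardiomyocyte markers measured was at 0. Replicate pairs differed by more than sampling noise (chi-square per gene of at least 4.88 in Dox and 4.36 in DMSO2), so no library was counted as a copy of another.

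Dox libraries 4 and 7 stood apart from the other Dox libraries. Among 10730 genes with a mean of at least 100 counts, library 4 lay far from the other 6 in 5.03% (265 genes below, 275 above) and library 7 in 3.16% (261 below, 78 above), against 0.149% to 0.606% for the other Dox libraries and at most 1.85% for DMSO2 libraries. In library 7 some genes that were high in the other Dox libraries lay at the level of the controls: Nppb (brain natriuretic peptide, made by strained myocytes) was 27.4 CPM in library 7 and 196 to 244 CPM in the other 6, while DMSO2 ran from 28.0 to 40.2 CPM. Nppa, the atrial form, did not share this, with a level in library 7 at the Dox median (given below). Of the 358 genes with such a mean count that rose by at least 1 on the log2 scale, 21 were above every DMSO2 library in Dox libraries 1 to 6 and within or below the DMSO2 range in library 7. They include Nppb, Xirp2, Myh7, Csrp3, Enah, Nrap, Actn1, Acta2 and Creb5, which were picked out after their values were seen. In 17 of the 21, the DMSO1 libraries, which held no drug, were also above DMSO2 (FDR below 0.01). Over all genes this held for 1436 of 14554. Nppb reached 883 CPM in DMSO1, with 30.7 CPM in its lowest library, and Nppb, Xirp2 and Myh7 were not higher in Dox than in DMSO1, with log2 differences of -1.23 (FDR = 3.83e-04), -0.39 (FDR = 0.247) and -0.20 (FDR = 0.44). The part of culture conditions in these genes was not tested. Without library 7 the log2 fold changes of Nppb, Xirp2, Myh7 and Scn3b went from 2.55, 3.001, 1.49 and 4.26 to 2.75, 3.19, 1.63 and 4.46. Library 4 was set apart by Bnip3 among others. Bnip3, a mitophagy receptor, was 759.8 CPM there and 135 to 168 CPM in the other Dox libraries. Leaving out library 4 lowered the log2 fold change of Bnip3 from 1.31 to 0.65 and ended its call (FDR = 0.0264).

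**Figure D1:**
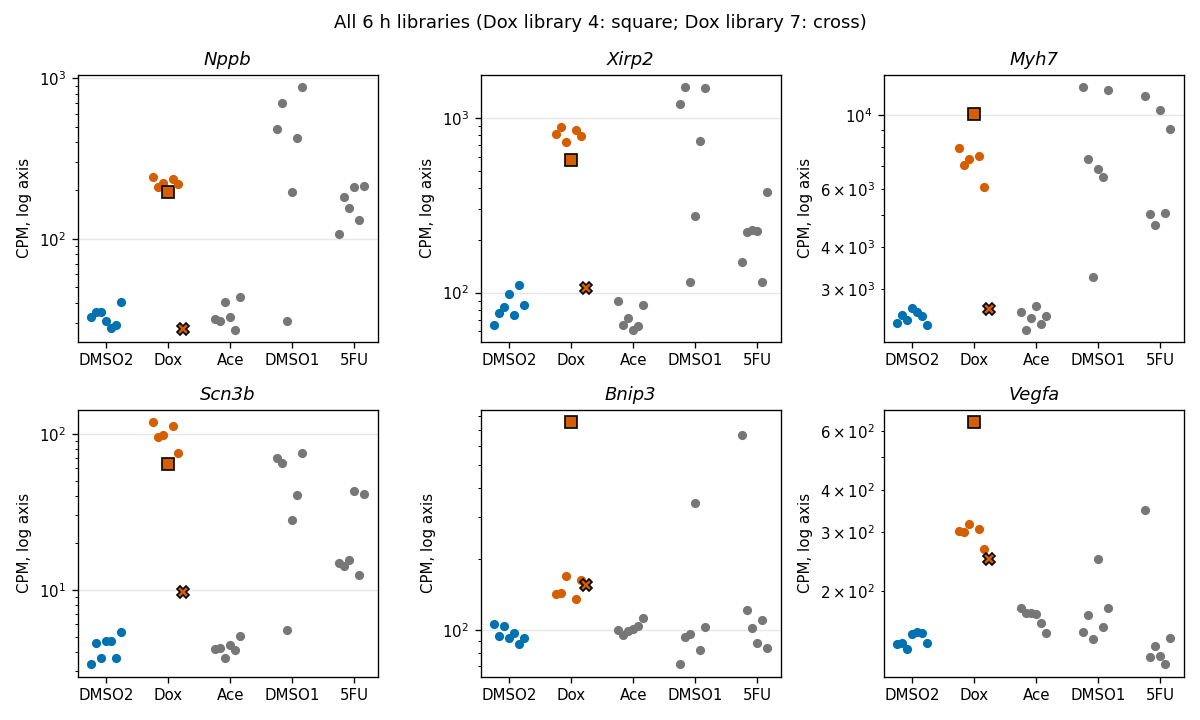
CPM (log axis) of Nppb, Xirp2, Myh7, Scn3b, Bnip3 and Vegfa in every 6 h library, 1 point per library, by group (7 DMSO2, 7 Dox and 6 each of Ace, DMSO1 and 5FU). Dox library 7 (cross) lies at the DMSO2 level for Nppb, Xirp2 and Myh7, Dox library 4 (square) lies at 759.8 CPM for Bnip3, and 5 of the 6 DMSO1 libraries lie far above DMSO2 for Nppb.

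Within 6 h Dox changed 9349 of 14554 genes at an FDR below 0.01 (64.2% of all genes), 4589 upwards (31.5%) and 4760 downwards (32.7%), in edgeR's quasi-likelihood test with Benjamini-Hochberg adjustment over all genes. These genes are called DEGs below, and a gene is said to rise or fall where it is one. Most changes were small: 1010 genes rose (6.94%) and 1225 fell (8.42%) by at least 1 on the log2 scale. Every Dox library lay above every DMSO2 library in 2864 genes (19.7%) and below in 3330 (22.9%). Large rises were most frequent among genes of low abundance, where large falls were frequent too. Of the 3639 genes with the lowest expression, 664 rose and 423 fell by at least 1, while of the next 3638 genes 200 rose and 456 fell. A gene near 0 in DMSO2 at 6 h is in the table only through at least 10 counts in a library of another group. This filter favours rises among such genes. Against library totals alone, without TMM scaling, the median of all genes moved from 0.003 to -0.15, and the DEGs split into 3064 higher and 5998 lower. Directions of small shifts below therefore hold relative to the median gene. Against the other vehicle, DMSO1, 1993 of the 2235 genes that changed by at least 1 were DEGs with the same sign, 235 were not called and 7 had the opposite sign, a comparison added after the data were seen. Over all 14554 genes 4152 were higher and 4644 lower in Dox than in DMSO1. List counts against DMSO1 below are to be read beside these, and several lie near that background.

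The 10 largest rises included Pmaip1 of the p53 targets, described below, and 9 genes of other kinds. Ppp2r2c, a brain-type regulatory subunit of protein phosphatase 2A (Entrez 117256), was 0.0438 to 0.471 CPM (median 0.295) in DMSO2 and 12.6 to 16.5 CPM (median 13.8) in the Dox libraries (log2 fold change 5.59, SE 0.22, FDR = 2.10e-32). Palm3, of the paralemmin family of membrane-bound proteins, was 12.7 to 17.5 CPM (median 14.4) in the Dox libraries and 0 to 0.717 CPM (median 0.438) in DMSO2 (log2 fold change 5.47, SE 0.25, FDR = 1.18e-28). No Dox library came near the control range of either gene. Lratd1, Ltk (a receptor tyrosine kinase), Ccdc96, Ankrd13d, Fam167a and Rhov (a small GTPase) had log2 fold changes of 4.96, 4.24, 3.97, 3.97, 3.86 and 3.83. All were low in controls, with DMSO2 medians of 0.295 to 2.45 CPM, and their log2 differences from DMSO1 were 3.43 to 5.19 for these 6 genes. Scn3b, a sodium channel beta subunit, also ranked among the 10 largest rises (log2 fold change 4.26, SE 0.37, FDR = 3.18e-16), but library 7 held 9.64 CPM where the other Dox libraries held 64.1 to 119.5 CPM, and its difference from DMSO1 was 0.79 (FDR = 0.0207).

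The 10 largest falls, ranked in the same way, were led by a heart gene. Lrrc10 (Entrez 314848), a cardiomyocyte protein of the Z-disc, was 13.9 to 24.7 CPM (median 19.1) in DMSO2 and 0 to 0.518 CPM (median 0) in the Dox libraries, with 5 of the 7 Dox libraries at 0 (log2 fold change -7.14, SE 0.42, FDR = 9.48e-24). G0s2, which inhibits the triglyceride lipase ATGL, was 181 to 211 CPM (median 193) in DMSO2 and 5.64 to 9.03 CPM (median 8.02) in the Dox libraries (log2 fold change -4.66, SE 0.21, FDR = 2.23e-29). Txnip, a thioredoxin-binding protein that restrains glucose uptake, was 936 to 1086 CPM (median 1011) in DMSO2 and 104 to 144 CPM (median 117) in the Dox libraries (log2 fold change -3.07, SE 0.14, FDR = 4.51e-29). The groups did not overlap in any of the 3 genes. Rrad, a small GTPase that inhibits the L-type calcium channel, fell by 2.95 on the log2 scale, and B3galt2, Tmem51, Epn3, Fam83c and A4galt had log2 fold changes of -3.44, -3.31, -3.12, -2.88 and -2.78.

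**Figure D2:**
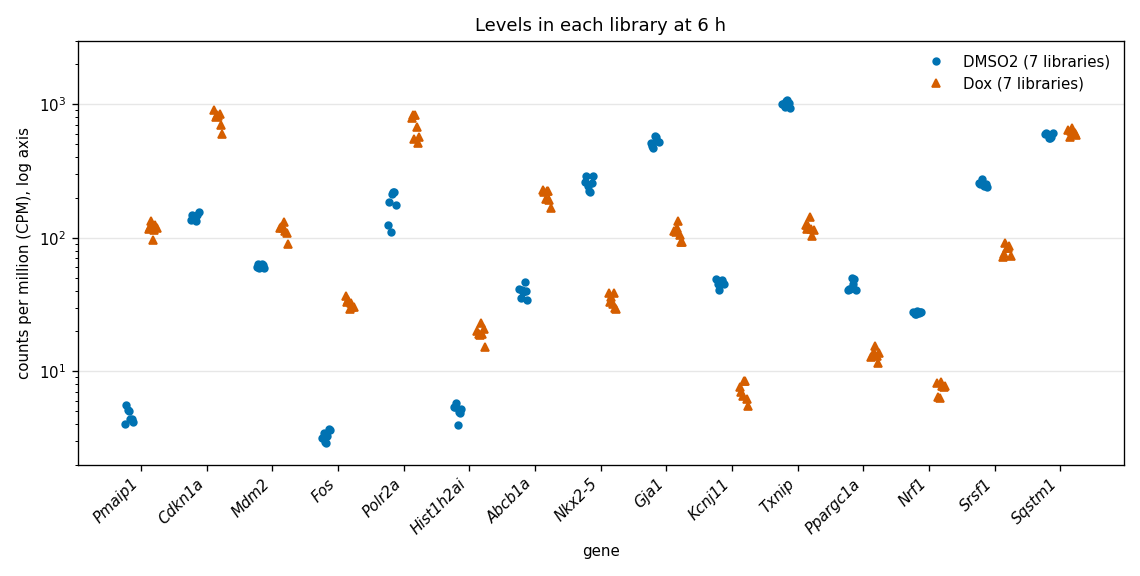
CPM (log axis) of 15 genes in the 7 DMSO2 (circles) and 7 Dox (triangles) libraries at 6 h, 1 point per library. The groups do not overlap for Pmaip1, Cdkn1a, Mdm2, Fos, Polr2a, Hist1h2ai, Abcb1a, Nkx2-5, Gja1, Kcnj11, Txnip, Ppargc1a, Nrf1 and Srsf1, and they overlap for Sqstm1.

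p53 responds to DNA breaks, and its targets rose as a list: 22 of 32 measured targets rose and 4 fell, with a median log2 fold change of 0.91 beside 0.003 over all genes, and 14 of the 22 rose by at least 1. Pmaip1 (Noxa, Entrez 492821), a BH3-only protein that neutralises MCL1, was 95.7 to 134 CPM (median 119) in the Dox libraries and 4.04 to 5.62 CPM (median 4.42) in DMSO2 (log2 fold change 4.65, SE 0.17, FDR = 3.05e-34). Cdkn1a (p21, Entrez 114851), which halts the cell cycle by inhibiting cyclin-dependent kinases, was 601 to 909 CPM (median 812) in the Dox libraries and 134 to 155 CPM (median 143) in DMSO2 (log2 fold change 2.46, SE 0.22, FDR = 3.35e-15). Mdm2, the ligase that returns p53 to low levels, was 90 to 132 CPM (median 119) in the Dox libraries and 59.2 to 63.5 CPM (median 62.1) in DMSO2 (log2 fold change 0.90, SE 0.14, FDR = 1.44e-07). The 3 genes stood above the control range in every Dox library. Gdf15, a secreted stress hormone, the death receptors Eda2r and Fas, and the antiproliferative Btg2 rose by 3.36, 2.67, 1.94 and 2.21 on the log2 scale. The targets that fell were Sesn1 (-0.80, FDR = 1.21e-12), Gadd45a (-0.33, FDR = 6.30e-05), Ercc5 (-0.68, FDR = 4.38e-10) and the p53 phosphatase Ppm1d (-0.19, FDR = 0.00763), and Xpc, Ddb2 and Polk were among the 6 not called, with values of -0.03, 0.02 and -0.21. The medians of the list at 6 h were 0.30 in Ace and 0.53 in 5FU. Mdm2 rose more in 5FU than in Dox: the Dox effect minus the 5FU effect was -0.92 (SE 0.21, FDR = 1.58e-04), while for Cdkn1a it was 0.59 (SE 0.31, FDR = 0.108).

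The promoter window of Cdkn1a is printed because its gene is a well known p53 target and rose here in every library. RefSeq sequence of the GRCr8 assembly is shown 5′ to 3′ over chr20:7150682-7150981, plus strand, from 250 bases before the annotated start to 50 bases after it. Capitals mark the single p53 decamer and the single match to TGACG, the core of the cyclic AMP response element.
Cdkn1a: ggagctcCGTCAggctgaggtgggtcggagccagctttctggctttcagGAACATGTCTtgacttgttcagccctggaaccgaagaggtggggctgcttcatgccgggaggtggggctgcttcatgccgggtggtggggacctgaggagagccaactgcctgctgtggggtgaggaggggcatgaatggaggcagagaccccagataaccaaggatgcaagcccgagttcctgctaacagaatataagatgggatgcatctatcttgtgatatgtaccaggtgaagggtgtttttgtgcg
A p53 decamer on either strand was found in such windows of 7 of the 27 p53 targets with a sequence (25.9%), among them Ccng1, Ei24, Aen and Ckap2, which rose, and Sesn1 and Gadd45a, which fell. Over the 11403 genes of the table with a window it was found in 6.91%, among genes that rose by at least 1 in 9.83% of 753, and among those that fell by at least 1 in 8.90% of 944. The counts rest on an Ensembl rat transcriptome and the windows on RefSeq, so a start site may differ from the one in use, and a match is a description of letters and not of binding.

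Other genes of the damage response did not move as a list. Of 29 genes of break signalling and repair, 7 rose and 8 fell (median -0.09). Lig4, the ligase of end joining, rose by 1.55, the sensor kinase Atr by 0.74 and the histone H2ax by 0.79. Tp53bp1, which steers breaks to end joining, was 64.8 to 83.1 CPM (median 75.6) in DMSO2 and 32.2 to 39.1 CPM (median 34.7) in the Dox libraries (log2 fold change -1.09, SE 0.05, FDR = 4.33e-31). Atm and Brca1 were not called, at -0.15 and -0.03. Of 8 genes of topoisomerases and their repair 3 rose and 3 fell: Top1 rose (0.50, FDR = 2.46e-13) and Top2a, the proliferative form of topoisomerase II, fell (-0.71, FDR = 9.10e-10). Top2b, the other form of topoisomerase II, was listed but not measured. Top2a also fell in Ace, and the difference of Dox from Ace was -0.11 (SE 0.10, FDR = 0.318). Tdp1, which removes topoisomerase I from DNA ends, fell by 1.61 on the log2 scale. Among 22 apoptosis regulators 6 rose and 10 fell. The pore protein Bax rose by 1.16, while the initiator Casp8 and its inhibitor Cflar fell by 0.86 and 0.88 on the log2 scale. Abcb1a, the P-glycoprotein pump that exports Dox, was 167 to 227 CPM (median 221) in the Dox libraries and 34.2 to 46.3 CPM (median 40.3) in DMSO2 (log2 fold change 2.38, SE 0.13, FDR = 6.23e-25), and 3 of 12 genes of Dox transport and reduction rose and 4 fell.

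Histones package DNA, and the genes of the replicating cell make messages that end in a stem-loop in place of a polyA tail. Of 35 histone genes measured, 27 rose and none fell (8 not called), with a median log2 fold change of 0.92. Hist1h2ai was 15.2 to 23 CPM (median 19.1) in the Dox libraries and 3.99 to 5.8 CPM (median 5.19) in DMSO2 (log2 fold change 1.93, SE 0.09, FDR = 1.92e-28), and H3f3b, which encodes the replacement histone H3.3, was 593 to 669 CPM (median 645) in the Dox libraries and 229 to 264 CPM (median 249) in DMSO2 (log2 fold change 1.36, SE 0.05, FDR = 2.80e-32). The groups did not overlap in either gene. Linker histones H1f5 and H1f1 rose by 2.07 and 2.26, H2ax by 0.79 and H2az1 by 0.43, while H1f4, H2bc12 and H2az2 were not called (-0.21, -0.24 and 0.08). Histone copies are near identical, so reads may have been split among them, and single copies are uncertain. The libraries were made by polyA selection, so stem-loop messages without a tail are poorly captured. For those genes more message and a larger share with a tail cannot be told apart. The medians of the list were 0.22 in Ace and 0.34 in 5FU, and 22 of the 35 genes were higher and 3 lower in Dox than in Ace.

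Promoters of the histone genes share 2 motifs of core promoters. TATAAA on either strand was in 21 of 33 windows (63.6%), against 7.45% of the 11403 windows of the table, and CCAAT was in 30 of 33 (90.9%) against 36.6%. Of the 8 histone genes with a window that were not called, 5 held TATAAA and 8 CCAAT, and of the 25 that rose, 16 and 22 did. The windows of Hist1h2ai (chr17:47413803-47414102, plus strand) and H3f3b (chr10:101757587-101757886, minus strand), GRCr8, are printed as the histone gene with the largest rise among those with a mean of at least 100 counts and as the one with the most counts among those that rose by at least 1. Capitals mark the TATAAA and CCAAT motifs on either strand, the CRE core TGACG and, in Hist1h2ai, a p53 decamer.
Hist1h2ai: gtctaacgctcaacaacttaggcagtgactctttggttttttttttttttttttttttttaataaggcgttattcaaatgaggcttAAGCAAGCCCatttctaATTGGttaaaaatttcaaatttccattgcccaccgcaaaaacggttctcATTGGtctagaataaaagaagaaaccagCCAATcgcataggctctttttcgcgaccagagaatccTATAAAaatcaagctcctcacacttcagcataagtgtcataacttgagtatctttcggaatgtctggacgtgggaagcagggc
H3f3b: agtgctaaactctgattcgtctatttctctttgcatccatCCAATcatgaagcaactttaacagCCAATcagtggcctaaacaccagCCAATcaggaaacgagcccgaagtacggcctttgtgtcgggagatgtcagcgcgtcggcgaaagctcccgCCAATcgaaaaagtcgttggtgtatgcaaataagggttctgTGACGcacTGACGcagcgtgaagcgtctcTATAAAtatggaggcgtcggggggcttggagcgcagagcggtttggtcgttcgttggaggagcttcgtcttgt
The first window holds TATAAA at 1 place and CCAAT at 3, and the second holds TATAAA at 1 place, CCAAT at 4 and TGACG at 2. Hist1h2ai shares 237 bases of its window with Hist1h2bo, which is read from the other strand and also rose (1.56, FDR = 5.79e-17). H2ac12 and H2bc12 share 248 bases in the same way, but their values differed, with 1.62 (FDR = 3.94e-11) for H2ac12 and -0.24 (FDR = 0.403) for H2bc12.

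Genes of the transcription machinery moved unevenly. Polr2a, the catalytic subunit of RNA polymerase II, was 513 to 829.6 CPM (median 674) in the Dox libraries and 110.3 to 220.2 CPM (median 186) in DMSO2 (log2 fold change 1.93, SE 0.15, FDR = 1.75e-17), the only one of 30 genes of polymerase II and its elongation factors to change by at least 1. It rose more than in Ace, by 1.53 (SE 0.16, FDR = 7.13e-13), and more than in 5FU, by 1.84 (SE 0.22, FDR = 1.48e-10). Nelfa, a subunit of the pausing factor NELF, fell by 0.81, and Hexim1, which holds the kinase P-TEFb inactive, moved by 0.29, less than in Ace (difference -0.89, SE 0.05, FDR = 2.54e-24). Immediate early transcription factors, which are induced without new protein synthesis, gave 14 rises and 4 falls among 26, with a median of 0.57. Fos was 29 to 36.9 CPM (median 32.4) in the Dox libraries and 2.89 to 3.71 CPM (median 3.29) in DMSO2 (log2 fold change 3.29, SE 0.15, FDR = 9.86e-29), and Nr4a3 and Fosb rose by 2.71 and 2.32. Egr4 rose by 4.10 but held at most 3 counts in any DMSO2 library and only 3 to 13 in the Dox libraries. Over a floor of 3 counts per library its rise was at least 2.95-fold. Myc and Klf6 fell by 0.95 and 1.02, and Jun by 0.33. Zinc finger (Zfp) genes, many of which encode DNA-binding repressors, fell more often than they rose, 148 against 45 of 263, with a median of -0.39, where the medians in Ace and 5FU were 0.18 and 0.18. In Dox 174 of the 263 were lower than in Ace and 30 were higher. Zfp955a fell by 2.38, and Zfp367 rose by 1.73. Splicing regulators also fell more often than they rose, 15 against 7 of 28. Srsf1, a founding SR protein, was 239 to 275 CPM (median 252) in DMSO2 and 71.2 to 90.8 CPM (median 84.2) in the Dox libraries (log2 fold change -1.65, SE 0.05, FDR = 2.34e-39), and it fell by 1.47 in 5FU (difference in effects -0.17, SE 0.07, FDR = 0.0261).

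Most transcription factors of the heart lineage fell. Of 22 measured, 17 fell and 4 rose, with a median of -0.72, and 13 lay below every control library. Nkx2-5 (Entrez 114109), the homeobox factor of the early heart, was 221 to 290.1 CPM (median 258) in DMSO2 and 29.5 to 38.7 CPM (median 33) in the Dox libraries (log2 fold change -2.92, SE 0.08, FDR = 1.27e-41). It fell further than with either other drug: its difference was -3.06 (SE 0.08, FDR = 1.35e-41) from Ace and -2.68 (SE 0.10, FDR = 2.99e-31) from the 5FU effect. Irx4, Tbx20, Gata6, Prox1 and Hand2 fell by 1.83, 1.79, 1.36, 1.34 and 1.33, and Gata4 and Tbx5 by 0.73 and 0.71. The factors that rose were Tbx3 (log2 fold change 1.86, SE 0.10, FDR = 6.79e-25) and Tbx2 (1.20), both repressors of chamber genes in the conduction system, and Irx3 and Irx5 (0.46 and 0.60). Tead1 was not called (-0.16).

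Ion channels and connexins carry the action potential and its spread. Of 25 measured, 21 fell and 3 rose, with a median of -1.13, and 19 lay below every control library. Gja1 (connexin 43), the main gap junction protein of the ventricle, was 469 to 583 CPM (median 524) in DMSO2 and 92.9 to 134 CPM (median 110.4) in the Dox libraries (log2 fold change -2.26, SE 0.08, FDR = 1.48e-35). Kcnj11, the pore of the ATP-sensitive potassium channel, was 40.3 to 48.7 CPM (median 45.3) in DMSO2 and 5.52 to 8.48 CPM (median 7.05) in the Dox libraries (log2 fold change -2.68, SE 0.08, FDR = 4.58e-39). Both fell in each Dox library, and both fell further than in Ace, by -1.91 (SE 0.08, FDR = 2.12e-31) and -2.01 (SE 0.08, FDR = 1.18e-31). The inward rectifier Kcnj2 fell by 1.07, and the transient outward channel Kcna4 and Kcnh2 by 2.70 and 1.47. The risers were Scn3b, described above, Kcne1 (1.17) and Cacna2d1 (0.58). Receptors also fell more often than they rose: 12 of 19 receptors for hormones and transmitters fell and 4 rose (median -0.81). The endothelin receptor Ednra was 134 to 172 CPM (median 158) in DMSO2 and 17.9 to 27.9 CPM (median 22.6) in the Dox libraries (log2 fold change -2.78, SE 0.09, FDR = 7.59e-36), and the beta-1 adrenergic receptor Adrb1, the main target of noradrenaline in myocytes, was 24.6 to 41.5 CPM (median 28.8) in DMSO2 and 4.7 to 9.45 CPM (median 7.36) in the Dox libraries (log2 fold change -2.04, SE 0.14, FDR = 1.03e-19). Adrb1 moved the other way in 5FU, where it rose by 0.82 (FDR = 8.60e-07), and the effects differed by -2.86 (SE 0.20, FDR = 2.11e-19).

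Contractile genes rose more often than they fell against DMSO2, and the reverse held against DMSO1. Of 32 sarcomere and Z-disc genes 17 rose and 8 fell (median 0.37), but against DMSO1 4 rose and 12 fell (median -0.12), so the direction of the list turned with the control. Myh7, the slow myosin heavy chain, was 2607 to 10080 CPM (median 7350) in the Dox libraries and 2334 to 2636 CPM (median 2488) in DMSO2 (log2 fold change 1.49, SE 0.23, FDR = 3.61e-08), with library 7 inside the control range, and Myh6, the fast form, was 12560 to 18540 CPM (median 15180) in DMSO2 and 9763 to 13040 CPM (median 11250) in the Dox libraries (log2 fold change -0.47, SE 0.10, FDR = 3.89e-05). Natriuretic peptide and fetal program genes gave 7 rises among 10 (median 0.77) against DMSO2, and 2 rises and 3 falls (median -0.11) against DMSO1. Nppa, atrial natriuretic peptide, was 8929 to 11500 CPM (median 10690) in the Dox libraries and 4730 to 7416 CPM (median 6222) in DMSO2 (log2 fold change 0.75, SE 0.16, FDR = 2.49e-05). Its log2 difference from DMSO1 was 0.31 (FDR = 0.0862), not called. Calcium store genes gave 4 rises and 6 falls among 15: the pump Atp2a2 was not called (-0.14, FDR = 0.0709), its inhibitor Pln fell by 0.91, and the release channel Ryr2 fell by 0.34, a call that was lost without Dox libraries 4 and 7 (-0.26, FDR = 0.0413).

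Of the markers of other heart cells, the endothelial list moved as a whole. All 10 endothelial markers measured fell, by 1.02 to 2.51 on the log2 scale, with a median of -1.47. Their summed level was 96.9 to 152 CPM in Dox and 281 to 344 CPM in DMSO2, and none was at 0 throughout. Cldn5, a tight junction protein, was 9.91 to 11.6 CPM (median 11) in DMSO2 and 0.978 to 3.29 CPM (median 1.38) in the Dox libraries (log2 fold change -2.51, SE 0.28, FDR = 4.17e-12), and Cdh5, the endothelial cadherin, fell by 1.40. All 10 were also lower in Dox than in Ace and than in DMSO1, with a median of -0.87 against DMSO1. Of 10 fibroblast markers 6 fell and none rose (median -0.39), but against DMSO1 2 rose and 2 fell (median 0.02). Pdgfra and Tcf21, a receptor and a transcription factor, fell by 2.37 and 1.93, the summed level of the 10 markers was 9663 to 12100 CPM in Dox and 11660 to 16350 CPM in DMSO2, and Dcn, Ddr2, Vim and Col1a1 were not called (0.05, -0.11, -0.07 and -0.43). Smooth muscle and pericyte markers split: the contractile Cnn1, Acta2, Myh11 and Tagln rose by 1.83, 1.67, 1.57 and 1.54, with log2 differences from DMSO1 of -0.12 (FDR = 0.696) for Acta2 and 0.38 (FDR = 0.143) for Cnn1, and the pericyte genes Kcnj8, Pdgfrb and Cspg4 fell by 1.94, 1.52 and 1.03. Macrophage markers gave 2 rises and 2 falls among 10, with summed levels of 73.1 to 88.5 CPM in Dox and 67.3 to 80.5 CPM in DMSO2. Mesothelial markers gave 1 rise and 2 falls among 6. The part of lost cells in the endothelial and fibroblast values was not tested.

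Genes of the respiratory complexes and the TCA cycle moved opposite to the regulators of mitochondrial biogenesis. Of 17 regulators of mitochondrial biogenesis 13 fell and 1 rose, with a median of -0.67. The coactivator Ppargc1a (PGC-1α) was 40.6 to 50.1 CPM (median 41.6) in DMSO2 and 11.5 to 15.5 CPM (median 13.5) in the Dox libraries (log2 fold change -1.72, SE 0.07, FDR = 1.22e-30), and Nrf1, which drives respiratory chain genes, was 26.8 to 28.1 CPM (median 27.6) in DMSO2 and 6.3 to 8.34 CPM (median 7.7) in the Dox libraries (log2 fold change -1.88, SE 0.06, FDR = 1.84e-37). Nrf1 did not fall with the other drugs: Dox differed from Ace by -2.19 (SE 0.06, FDR = 1.89e-40) and from the 5FU effect by -2.04 (SE 0.08, FDR = 5.34e-31). Esrrb, Ppargc1b, Klf15 and Perm1 fell by 2.20, 1.67, 1.46 and 1.30, and Tfam moved by 0.16. Meanwhile 73 of 82 subunits of complexes I to V rose and none fell (median 0.35), as did 17 of 20 TCA cycle genes (median 0.27) and 63 of 76 cytosolic ribosomal protein genes, where 1 fell (median 0.43). Cox6a2, a heart-type subunit of complex IV, was 493 to 641 CPM (median 578) in DMSO2 and 791 to 922 CPM (median 856) in the Dox libraries (log2 fold change 0.57, SE 0.07, FDR = 2.64e-11). With library totals alone the medians of these 3 lists stayed above 0, at 0.20, 0.11 and 0.28, with 46, 7 and 60 rises, so that for the TCA cycle most of the calls were lost. The complexes and cytosolic ribosomal proteins rose by like medians in 5FU (0.36 and 0.32) and not in Ace (0.02 and 0.06). Mitochondrial ribosomal proteins were mixed, with 31 rises and 13 falls among 71 (median 0.15). With library totals alone they gave 14 rises and 23 falls (median -0.001).

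Genes of fuel use changed by pathway. Among 24 genes of fatty acid oxidation and lipolysis 11 rose and 4 fell, G0s2 among them, and Cpt1b, the mitochondrial entry step, was not called (0.12). Pdk4, which shuts pyruvate out of mitochondria, fell by 0.53, and in 5FU it rose by 1.18 (FDR = 5.89e-15), a difference of -1.71 (SE 0.15, FDR = 5.53e-16). Glycolysis genes gave 13 rises and 5 falls among 24, with Pfkp at 0.92, and 7 rises and 4 falls without Dox libraries 4 and 7. With library totals alone 6 rose and 6 fell (median 0.15). Pfkp differed from DMSO1 by 0.10 (FDR = 0.481), not called, and was 278 CPM in Dox library 7, beside at most 276 CPM in DMSO2. Hk2 was 64.4 CPM in library 4, 24.7 to 31.9 CPM in the other Dox libraries and 35.4 to 42.5 CPM in DMSO2. Sterol and fatty acid synthesis fell, with 14 falls and 3 rises among 24: Dhcr7, an enzyme of cholesterol synthesis, fell by 1.86, while Idi1 rose by 1.30. Against DMSO1 19 of the 24 fell and none rose (median -0.69). DMSO1, with 1% DMSO, itself lay above DMSO2 in this list (median 0.54), so that comparison holds the difference in vehicle too. In phospholipid synthesis 6 rose and 9 fell among 22, Chka, which starts phosphatidylcholine synthesis, by 1.59 and the phosphatidate phosphatase Lpin1 by -0.90.

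Stress pathways did not rise together. Among 23 NRF2 targets and antioxidant enzymes 12 rose and 5 fell. Gclc, which limits glutathione synthesis, was 92.1 to 129 CPM (median 112) in the Dox libraries and 51.9 to 59.2 CPM (median 55.5) in DMSO2 (log2 fold change 0.98, SE 0.06, FDR = 3.24e-22), and it rose in Ace as well (difference -0.08, SE 0.06, FDR = 0.258), but Hmox1, the heme-degrading enzyme, fell (log2 fold change -0.78, SE 0.13, FDR = 2.33e-07) where it rose with Ace (difference -1.63, SE 0.13, FDR = 5.18e-17). Keap1, which sends NRF2 for degradation, was 85.2 to 96.3 CPM (median 91.7) in DMSO2 and 31.9 to 35.8 CPM (median 33.5) in the Dox libraries (log2 fold change -1.42, SE 0.04, FDR = 4.10e-37). Of 20 ATF4 and integrated stress response genes 10 fell and 4 rose (median -0.23). Atf4 itself fell by 1.42 and Chac1 by 1.93, and Ddit3 (CHOP) was not called (0.00). Chaperones of the endoplasmic reticulum gave 3 rises and 4 falls among 12, with Herpud1 down by 1.34. Of 12 heat shock proteins 8 rose and 3 fell, Hspa1b by 2.68 and the co-chaperone Bag3 by -1.11 (median of the list 0.31), while against DMSO1 4 rose and 4 fell (median 0.15). Of 19 chemokine and NF-kB genes 5 rose and 5 fell: the adhesion molecules Icam1 and Vcam1 moved in opposite directions (1.92 and -1.58) and Ccl2 was not called (0.24). Among 15 interferon genes 4 rose and 3 fell, Irf7 by 2.01 and Ifit2 by -1.20. Iron handling gave 4 rises and 6 falls among 13, the transferrin receptor Tfrc at 0.68 and the importer Slc39a14 at -1.45. Autophagy gave 8 rises and 5 falls among 17, with Atg7 down by 1.07 and Sqstm1 not called (0.07).

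Genes of G1 control rose more often than they fell against DMSO2 but not against DMSO1. Of 19 G1 cyclins and inhibitors 11 rose and 5 fell (median 0.35), and against DMSO1 6 rose and 7 fell (median 0.05). Cdkn1c (p57), an inhibitor of cyclin-dependent kinases, was 131 to 181 CPM (median 169) in the Dox libraries and 19.9 to 27.9 CPM (median 23.7) in DMSO2 (log2 fold change 2.78, SE 0.11, FDR = 1.43e-32), and it was not called with Ace or 5FU (0.05 and -0.002), from which Dox differed by 2.72 (SE 0.11, FDR = 8.92e-31) and 2.78 (SE 0.16, FDR = 2.04e-23). Cdkn2b fell by 1.16. Of 24 DNA replication genes 12 rose and 1, Mcm2, fell (by 0.81), but against DMSO1 5 rose and 5 fell. Of 23 G2/M genes 12 fell and 4 rose, with a median of -0.35 that was nearer 0 than the -0.65 of Ace and the -0.98 of 5FU, and against DMSO1 13 fell and 1 rose, with a median of -0.65. Plk1, the mitotic kinase, fell by 0.35, where Dox exceeded Ace by 1.22 (SE 0.10, FDR = 1.30e-17), and 13 of the 23 genes were higher in Dox than in Ace and 1 was lower. Wee1, which delays mitosis, rose by 0.66.

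Signalling lists were mixed. Feedback inhibitors of kinase pathways gave 10 rises and 13 falls among 31, with Spry4 at 1.55 and the phosphatase Dusp10 at -2.10. Growth factors and receptors gave 7 rises and 12 falls among 28: Lif, a cytokine of the interleukin 6 family, rose by 1.97 and Vegfa by 1.24 (1.07 without Dox libraries 4 and 7), and Erbb4, the neuregulin receptor of myocytes, fell by 0.51. In TGF-beta and BMP signalling 11 of 25 rose and 5 fell, with Id4 at 1.83, Tgfb2 at 1.46 (not called against DMSO1) and the coreceptor Tgfbr3 at -1.53. Of 14 YAP pathway genes 8 fell and 2 rose, Yap1 by 1.06 and Ccn2 by 0.98. Of 14 Notch genes 5 rose and 5 fell, from the ligand Dll4 at -1.36 to the feedback gene Nrarp at 1.77. Clock genes fell more often than they rose, 12 against 4 of 19, and Bmal1, the core activator, was 14.9 to 27.4 CPM (median 26.7) in the Dox libraries and 5.99 to 7.71 CPM (median 7.18) in DMSO2 (log2 fold change 1.85, SE 0.11, FDR = 8.68e-24), while its repressor Nr1d1 fell by 0.36. Collagen genes gave 10 rises and 8 falls among 37 and matrix regulators 7 and 6 among 22.

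Genes with few or no counts in controls were also called. In 117 DEGs no DMSO2 library held more than 3 counts. Msx3, a homeobox gene of the dorsal neural tube, had 0 counts in all DMSO2 libraries and 83 to 104 counts in each Dox library, at least 33.4-fold higher than a floor of 3 counts per library. Pou3f1, Nppc (C-type natriuretic peptide), Rprm (a p53-linked G2 inhibitor), Foxd1 and Pitx1 held 26 to 67, 24 to 60, 27 to 43, 17 to 46 and 21 to 47 counts in each Dox library and at most 3 counts in any DMSO2 library. The genes named in this paragraph were picked after their values were seen. In the family of forkhead, Sox, Hox and Irx factors 23 of 48 rose and 16 fell, beside 31.5% and 32.7% of all genes. Foxd1, Foxl2, Foxd2, Sox21 and Sox3 are among the 117, where the filter favours rises. The rises of the family are thus partly favoured by the filter. In the other direction 25 DEGs held no more than 3 counts in any Dox library, and their DMSO2 means were at most 1.32 CPM. Genes with so few DMSO2 counts stayed in the table only through libraries of other groups, so the 117 and the 25 cannot be compared.

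**Figure D3:**
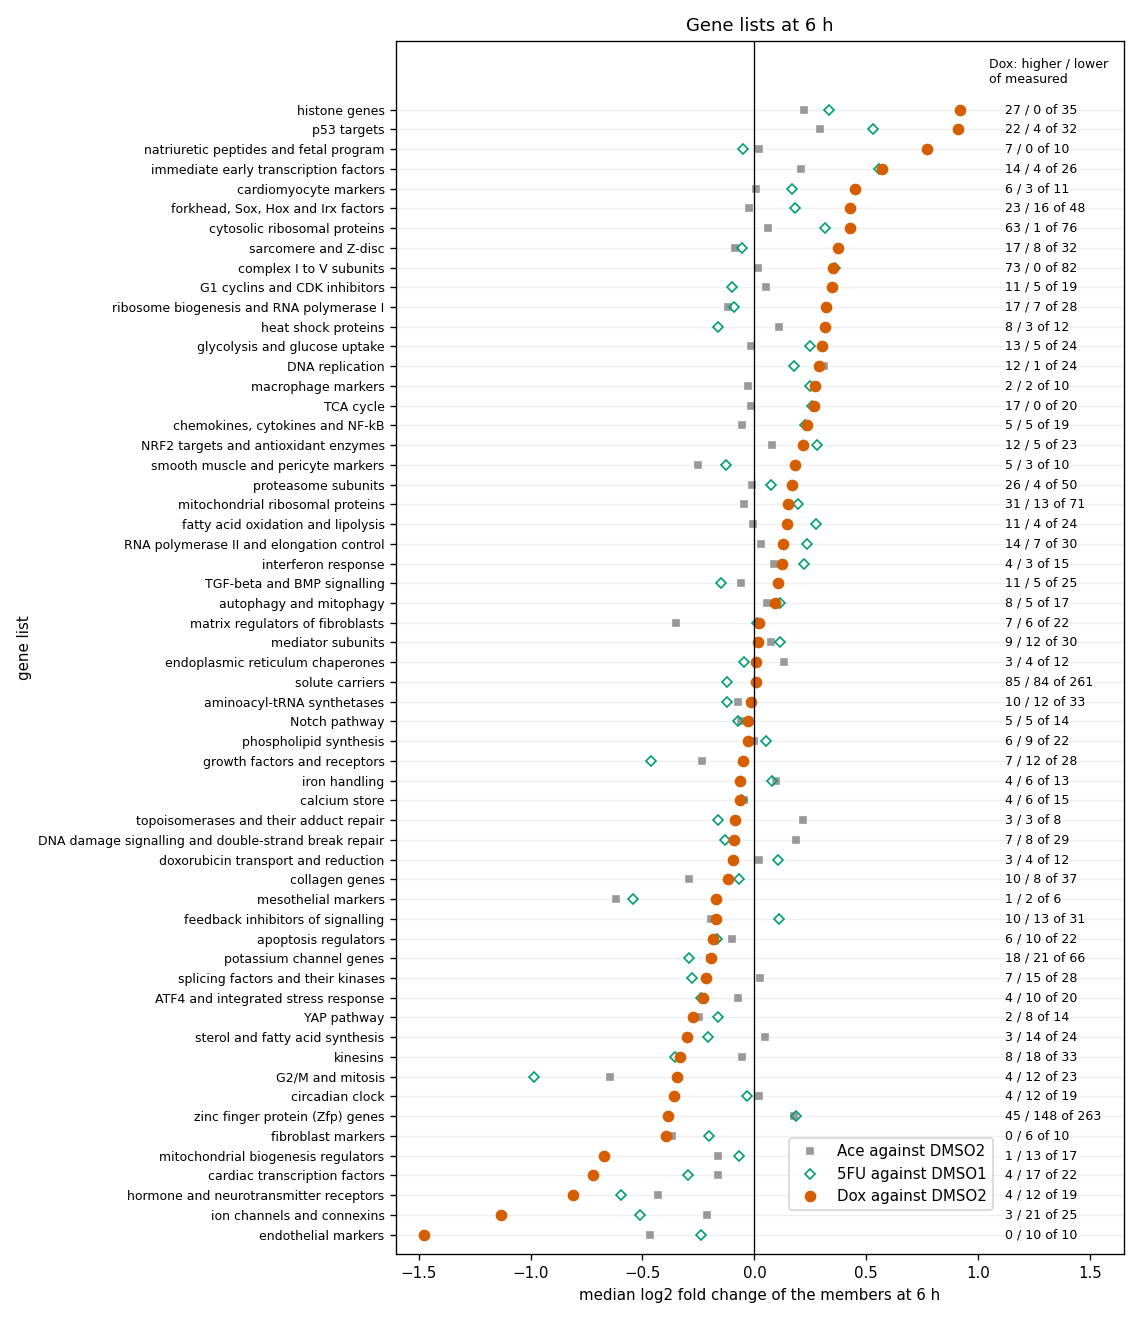
Median log2 fold change at 6 h over the measured members of 58 gene lists, in Dox against DMSO2 (filled circles), Ace against DMSO2 (squares) and 5FU against DMSO1 (open diamonds), with the number of members that rose and fell in Dox. Histone genes and p53 targets lie highest for Dox (0.92 and 0.91) and endothelial markers lowest (-1.47), and Zfp genes lie below 0 for Dox (-0.39) and above 0 for the other drugs (0.18 and 0.18).

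Dox could be set against Ace directly, since both used the same vehicle at the same time. Dox and Ace libraries differed in 9034 genes (62.1%), 4459 higher in Dox (30.6%) and 4575 lower (31.4%). In 306 genes Dox was above and Ace below their shared DMSO2 controls, and in 662 the reverse held. Every one of these also differed between Dox and Ace, which the choice of genes called with opposite signs made nearly certain. The effect of Dox differed from that of 5FU in 6684 genes (45.9%), where each drug had its own control. Of the 9349 DEGs of Dox 3066 were called with neither other drug, which is a count of calls and not a test. Txnip, which fell with Dox, rose by 1.32 in 5FU, with a difference in effects of -4.39 (SE 0.20, FDR = 1.97e-28). Ppp2r2c and Palm3 rose with 5FU too, by 1.56 and 2.38, but less than with Dox, with differences of 4.02 (SE 0.49, FDR = 1.22e-10) and 3.09 (SE 0.59, FDR = 7.73e-06).

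By 24 h, 11846 genes differed between Dox and DMSO2 (81.4%), and the effect had changed since 6 h in 9424 genes (64.8%), 4946 towards higher (34.0%) and 4478 towards lower values (30.8%). Of the 6 h DEGs 1345 were not called at 24 h, and 1209 were called with the opposite sign, 617 that first rose and 592 that first fell. Changes that grew include Pmaip1, with a 24 h effect of 7.63 (SE 0.19, FDR = 1.94e-44) and a gain of 2.98 (SE 0.25, FDR = 9.78e-17), Mdm2, with a gain of 1.91 (SE 0.20, FDR = 1.03e-12), and Hist1h2ai, with a gain of 3.33 (SE 0.13, FDR = 4.43e-32). The histone list as a whole reached a median of 3.44, under the same limit of polyA selection. Between the times the effects on Nkx2-5 and Lrrc10 moved by 0.26 (SE 0.10, FDR = 0.0181) and -0.22 (SE 1.24, FDR = 0.883), neither past the threshold, and Lrrc10 had counts at or near 0 in the Dox libraries of 6 h. Nrf1 moved back towards its control by 1.43 (SE 0.08, FDR = 1.19e-24) and stayed lower than DMSO2 at 24 h, by -0.45 (SE 0.05, FDR = 2.11e-11). Sarcomere genes turned from 17 rises and 8 falls to 3 and 27 against DMSO2, while against DMSO1 at 6 h they gave 4 rises and 12 falls. Myom2, an M-band protein, was 0.54 at 6 h and -3.79 (SE 0.15, FDR = 1.18e-33) at 24 h, and Yipf7, Akap6 and Itgb1bp2 (melusin) turned from 0.52, 0.28 and 0.70 to -3.71, -3.53 and -2.63. Against DMSO1 at 6 h Myom2, Yipf7, Akap6 and Itgb1bp2 were not called (0.17, -0.21, 0.02 and 0.03), so their early rise depends on the control. Akap6 was no longer called at 6 h with library totals alone (0.13, FDR = 0.235). The other way, Cyp1a1, the aryl hydrocarbon receptor target, went from -1.55 to 4.40 (SE 0.19, FDR = 2.48e-31), and Hmox1 from -0.78 to 2.01 (SE 0.13, FDR = 6.48e-22). Cldn5, a marker of endothelium, had a 24 h effect of -9.44 (SE 0.49, FDR = 8.07e-27). Its DMSO2 level at 6 h was only 9.91 to 11.6 CPM, so the exact size of that value is uncertain.

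**Figure D4:**
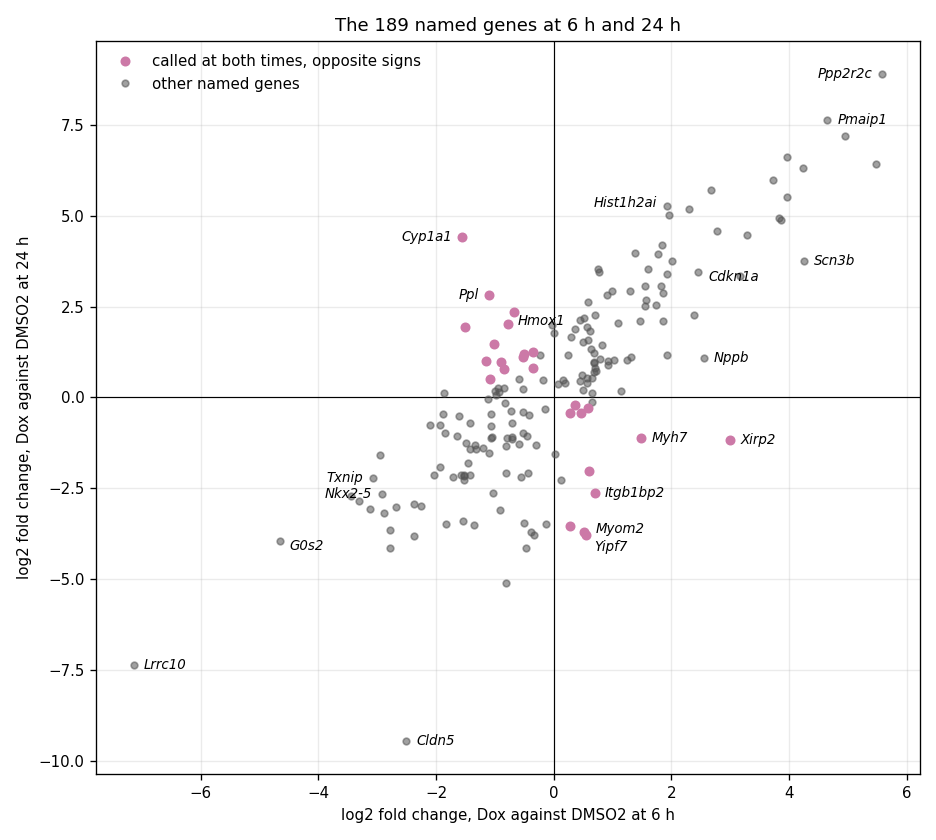
Log2 fold change of Dox against DMSO2 at 6 h (horizontal axis) and at 24 h (vertical axis) for the 189 genes named by rule, 1 point per gene. The coloured points are the 25 genes called at both times with opposite signs, from Xirp2 (3.001 at 6 h, -1.18 at 24 h) to Cyp1a1 (-1.55 at 6 h, 4.40 at 24 h).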

How the data were processed

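PolyA RNA of 65 libraries was sequenced by the study. The values are estimated counts per gene that the authors deposited as whole numbers in a table of 14554 Entrez genes, made with kallisto 0.46.0 and tximport, after they had removed genes low throughout, and the authors tested them with DESeq2. Per the study's methods, reads were pseudo-aligned to an Ensembl transcriptome of the rat. Columns are named by group only, so library numbers are names in column order and pair nothing. Symbols, found for 14009 genes, and promoter windows came from RefSeq (GRCr8).

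Differences were fitted with edgeR 4.0.16 (TMM scaling, quasi-likelihood test, R 4.3.3, limma 3.58.1) on all 65 libraries with 1 term per group. A gene needed at least 10 counts in 1 library, which removed none. Genes with a Benjamini-Hochberg FDR below 0.01 over all genes are DEGs. CPM used TMM library sizes, and ranges cover all 7 libraries of a group. Intervals between libraries are given as standard errors (SE), and depth was 17224055 to 21848389 counts per library. The fit was tested on simulated data.

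Genes were named by rule: preset core genes, the largest rise and fall in each of 45 lists and 13 families and the 10 largest rises and falls overall among DEGs with a mean of at least 100 counts, and the 5 largest turns in each direction by 24 h. Other list members were named as examples after their values were seen. Members and lists were chosen with earlier results of these data known. Listed genes missing from the table were left out of all counts. The comparison with DMSO1 and the fit without Dox libraries 4 and 7 were added after the data were seen. Alternatives were other scalings, filters, thresholds, a fit of the compared groups alone, the DESeq2 1.42.0 Wald test and leaving out each library. A few genes of the lists are counted in them but not reported here by name.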

Additional observations from a re-analysis of the deposited data

Results flagged for a closer look

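Within each group of 7 libraries the highest and lowest log2 CPM of the 189 named genes were compared with the rest by Dixon's criterion (gap over range above the 95% critical value for 7 values). Of 378 group tests 37 marked a library, 27 in Dox and 10 in DMSO2, where chance marks about 1 in 20. Most concerned Dox libraries 4 and 7.

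Dox library 7 was lowest for Scn3b (9.64 CPM), Xirp2 (106 CPM), Hspa1b (96.3 CPM), Nppb (27.4 CPM), Bmal1 (14.9 CPM), Id4 (20.2 CPM), Cnn1 (136 CPM), Myh7 (2607 CPM), Hspb1 (399 CPM), Yipf7 (14.1 CPM), Ankrd1 (154 CPM), Yap1 (30.0 CPM), Bag3 (77.4 CPM) and Rbm20 (75.6 CPM).

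Dox library 4 was highest for Bnip3 (759.8 CPM), Vegfa (638 CPM), Mrps6 (84.9 CPM), Pc (45.4 CPM), Cpt1b (334 CPM), Hk2 (64.4 CPM), Tbx5 (17.7 CPM), Hmox1 (130.5 CPM), Klf6 (11.5 CPM), Atf4 (93.2 CPM) and Zfp955a (9.99 CPM), and lowest for Rhov (7.46 CPM) and Sox8 (6.86 CPM).

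Among controls, DMSO2 library 7 was lowest for Sox8 (1.09 CPM) and Dusp10 (15.3 CPM) and highest for Cnn1 (109.6 CPM), Atf4 (210.1 CPM) and Chac1 (30.4 CPM). DMSO2 library 3 was lowest for Icam1 (11.3 CPM) and Kcnj11 (40.3 CPM), library 4 for Tcf21 (16.7 CPM) and library 6 for Sod2 (261 CPM), and library 6 was highest for Plk1 (34.2 CPM).

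In 24 named genes given here the Dox effect was called with opposite signs at 6 h and 24 h. The difference itself passed the edgeR test at an FDR below 0.01, which genes picked in this way could hardly fail. The 24 h effect was lower than the 6 h effect, on the log2 scale, for Xirp2 (-4.18), Myh7 (-2.61), Itgb1bp2 (-3.33), C1qa (-2.63), Col4a6 (-0.89), Myom2 (-4.33), Yipf7 (-4.22), Casq2 (-0.90), Tnnt2 (-0.58), Akap6 (-3.82) and Cs (-0.69). It was higher for Plk1 (1.16), Nr1d1 (1.60), Dusp1 (1.70), Pdk4 (1.63), Cx3cl1 (3.04), Hmox1 (2.79), Thbs1 (1.62), Lpin1 (1.89), Klf6 (2.50), Ppl (3.90), Cdkn2b (2.15), Pcdh17 (3.44) and Cyp1a1 (5.95). Against DMSO1 at 6 h Xirp2, Myh7, Itgb1bp2, Myom2, Yipf7, Casq2, Akap6 and Pdk4 were not called.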

How the results depend on the processing

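No paired analysis was possible because the columns carry no replicate numbers. With a log2 fold change of at least 1 required as well, the DEGs numbered 2235 (1010 higher, 1225 lower) for Dox against DMSO2, 2090 for Dox against Ace, 1985 for the Dox against the 5FU effect and 3770 for the 24 h against the 6 h effect. The other counts stayed within 1.5 times their value under every alternative. Leaving out 1 library at a time gave 9081 to 9229 DEGs (4370 to 4521 higher, 4586 to 4762 lower), 8828 to 9037 against Ace, 6514 to 6717 against the 5FU effect and 9271 to 9433 between times, and leaving out Dox libraries 4 and 7 together gave 9069 (4530 higher, 4539 lower). The DESeq2 Wald test gave 9496 and a fit of only the groups compared gave 8876.

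With library totals alone the DEGs were 3064 higher and 5998 lower, and medians that were above 0 turned for RNA polymerase II and elongation control (-0.028), fatty acid oxidation and lipolysis (-0.009), autophagy and mitophagy (-0.064), the interferon response (-0.028), TGF-beta and BMP signalling (-0.047) and mitochondrial ribosomal proteins (-0.001). Lists whose medians were 0.005 to 0.019 turned as well, namely endoplasmic reticulum chaperones (-0.145), matrix regulators of fibroblasts (-0.135), solute carriers (-0.149) and mediator subunits (-0.141). So did Cpt1b (-0.032), Sqstm1 (-0.083), Upk3b (-0.129) and Ddit3 (-0.151), none of them called. Brca1 was 0.009 with DESeq2 size factors and with the DESeq2 Wald test. Without 1 library at a time, Upk3b ran from -0.084 to 0.242, Ddit3 from -0.018 to 0.033 and Brca1 from -0.059 to 0.017, never called. The cause of these changes was not tested.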
